A study of Drosophila melanogaster with 12 samples.

Results

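The small RNAs bound to Aub in krimp mutant ovaries were set against those bound to AGO3 in krimp heterozygous ovaries of Drosophila melanogaster, to see whether Aub carries RNA of the AGO3 type when Krimper is missing. These are 2 of the 12 libraries of the series, 1 library each. The members were the sequences of 23 to 29 nt that shared no 15 nt with 2S rRNA, which was taken as the most abundant 30 nt sequence of the mutant Aub library. In mutant Aub this kept 3124 of 3496 listed sequences, and in AGO3 it kept 11045 of 12586. All ovaries were from females, the RNA was recovered with antibodies against each protein, and the labels give neither the krimp alleles nor an age. The Aub library of krimp heterozygous ovaries, called control Aub here, shares its antibody with mutant Aub and its genotype with AGO3, and served as the reference for what Aub carries with Krimper present. The Piwi libraries of both genotypes were the second reference. For mutant Aub the labels conflict, since the source name also carries the word control while the title and the genotype say mutant. No file measures krimp RNA or protein, so the genotypes were not checked.

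Piwi-interacting RNAs (piRNAs) guide 3 related proteins, Piwi, Aub and AGO3, to transposon RNA in the fly germline. Aub is known mainly for piRNAs that are antisense to transposons and begin with U (1U). AGO3 is known for sense piRNAs with A at position 10 (10A), which arise when Aub cuts a transposon transcript. That A lies opposite the first U of the Aub piRNA. The AGO3 guides in turn cut precursors of new Aub piRNAs. This ping-pong cycle leaves partners on opposite strands whose 5′ ends overlap by 10 nt. Krimper is a Tudor-domain protein of the nuage, the perinuclear site of the cycle, and binds AGO3.

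The RNA that was taken out is shown because it set how much of each library was left to compare. 2S rRNA is a short ribosomal RNA of flies. It is printed as listed, with T for U, and the capitals mark positions 1 and 10, so it is a 1U sequence that lacks 10A.
2S rRNA: TgcttggacTacatatggttgagggttgta
The RefSeq gene table lists 7 genes or pseudogenes of 2S rRNA, all of 30 nt, on chromosome X. Reads with 15 nt of it made up 53.8% of listed reads in mutant Aub, 6.30% in AGO3 and 66.3% in control Aub. The piRNAs themselves are named below by rank, length and bases 1 and 10, since they could not be placed on a chromosome here.

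After this step mutant Aub kept 2400019 reads, AGO3 6685629 and control Aub 1312990. The files list only sequences with at least 100 reads, so a sequence that is not listed may still have had up to 99, which is 0.00412% of the kept reads of mutant Aub and 0.00148% of those of AGO3. With 1 library a group no difference has a replicate check and no test was run. Intervals are exact Clopper-Pearson 95% intervals, which cover counting error only, because reads without molecular identifiers are not independent molecules.

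The kept reads of mutant Aub were not all of the piRNA type. Their leading sequence, 25 nt with G first and C at position 10, held 11.0% of kept reads in mutant Aub, 0.0706% in AGO3 and 0.487% in control Aub. From general knowledge its bases are those of 5S rRNA, an identification made after its values were seen and matched to no reference here. All 23 to 29 nt sequences with its 5′ end added up to 13.6% of mutant Aub reads against 0.0797% of AGO3 reads. Results are therefore given a second time without sequences that share 15 nt with any sequence of the myc-AGO3 library of krimp knockdown OSC, a cell line grown from somatic cells of the fly ovary. This OSC filter was chosen after the data were seen. It took away 21.3% of the kept reads of mutant Aub, 0.832% of those of AGO3 and 1.62% of those of control Aub, and what it removed was not identified.

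Mutant Aub was rich in 10A reads, as AGO3 was, but it also kept many 1U reads, as control Aub did. Of its kept reads, 60.5% were 10A (95% interval 60.4 to 60.6), between 46.7% in control Aub and 76.3% in AGO3. Both Piwi libraries were lower, at 27.3% in heterozygous and 28.3% in mutant ovaries. Without OSC matches the 10A share of mutant Aub was 76.3% (76.2 to 76.3), that of AGO3 76.5% and that of control Aub 47.3%. The gap between mutant Aub and AGO3 thus went from -15.8 to -0.28 points. Its sign is not settled, because another filter chosen after the data were seen, on the 500 most abundant sequences of the krimp mutant total library, put mutant Aub 4.05 points above AGO3.

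The 1U share told the libraries apart under either setting. It was 51.7% in mutant Aub (51.6 to 51.7), 35.5% in AGO3 and 76.1% in control Aub. Without OSC matches it was 62.9%, 35.7% and 77.0% in the same order. Mutant Aub lay between the controls each time, with 16.2 points more 1U than AGO3 under the rule and 27.2 points more without OSC matches.

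When each read was classed by both bases together, mutant Aub did not have the AGO3 pattern. Without OSC matches, 48.2% of its reads were both 1U and 10A, against 22.3% of AGO3 reads and 35.5% of control Aub reads. The class that led in AGO3, 10A without 1U, held 54.2% of AGO3 reads, 28.1% of mutant Aub reads and 11.8% of control Aub reads. The 1U reads without 10A led in control Aub with 41.4% and were 14.7% in mutant Aub and 13.3% in AGO3. With OSC matches included, mutant Aub had 38.0% in the class with both bases and 25.8% in the class with neither, while AGO3 had 22.2% and 10.4%.

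**Figure D1:**
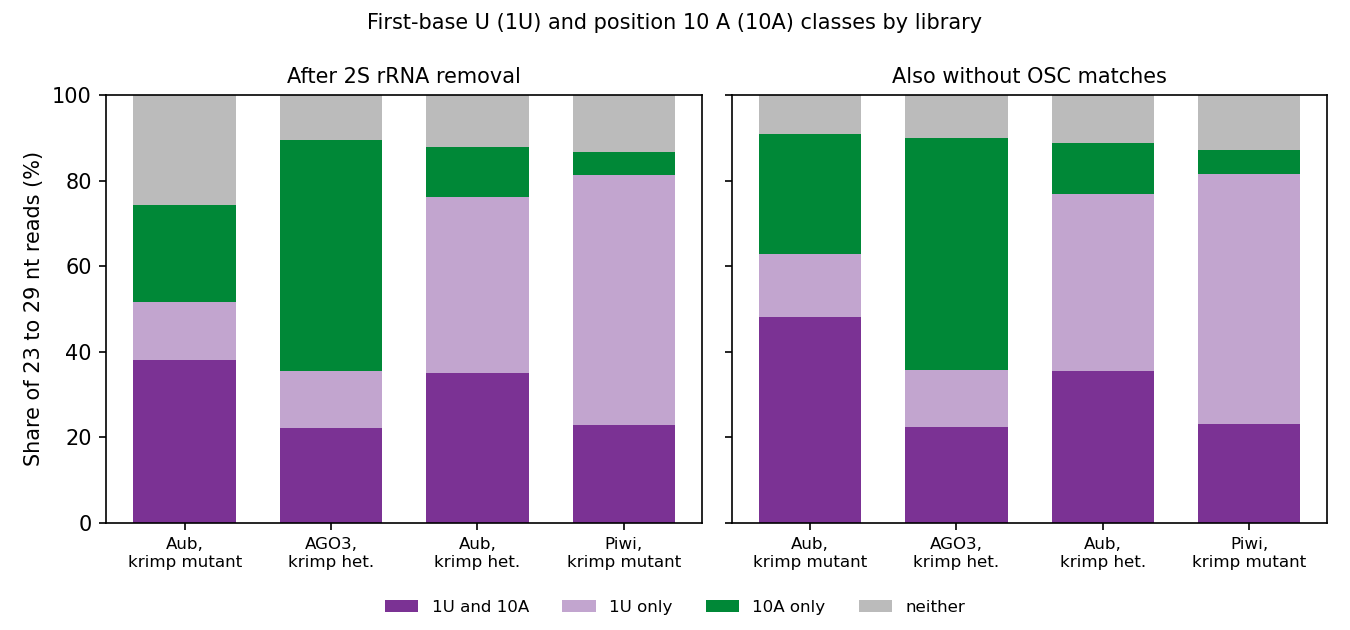
Stacked bars give the share of 23 to 29 nt reads (%) in each class of first base and base 10, for 4 libraries of 1 sample each, after 2S rRNA removal (left) and also without OSC matches (right). In mutant Aub the class with both 1U and 10A is the largest (38.0% and 48.2%), whereas 10A without 1U is the largest in AGO3 (54.1% and 54.2%).

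The 10A share also depended differently on the first base. Without OSC matches, 10A was found in 76.6% of mutant Aub reads that begin with U and in 75.6% of those that do not. In AGO3 the values were 62.6% and 84.2%, so that its 10A reads were concentrated among reads without 1U. In control Aub they were 46.2% and 51.1%. With OSC matches included, the mutant Aub values were 73.5% and 46.6%, so the near equality in mutant Aub held only after that filter.

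Base use along the whole read gave a further view. Without OSC matches, the mean absolute difference in base share from AGO3 at positions 1 and 10 was 7.97 points for mutant Aub, 17.6 for control Aub and 24.2 for heterozygous Piwi. Over the other 21 positions the same measure was 5.19 points for mutant Aub, 7.07 for control Aub and 5.24 for heterozygous Piwi. In that setting mutant Aub stood nearer to AGO3 than control Aub did at both sets of positions, though Piwi was as near as mutant Aub outside positions 1 and 10. With OSC matches included, mutant Aub was at 12.2 and 6.66 points, control Aub at 17.5 and 6.93, and heterozygous Piwi at 24.2 and 5.18, so that outside positions 1 and 10 Piwi was nearer to AGO3 than mutant Aub.

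Read lengths of mutant Aub were nearer to those of control Aub than to those of AGO3. Aub-bound piRNAs are known to be longer than AGO3-bound ones, and control Aub averaged 25.6 nt with a mode of 25 nt, while AGO3 averaged 24.8 nt with a mode of 24 nt. Mutant Aub averaged 25.4 nt with a mode of 25 nt. Reads of 23 nt were 5.34% of mutant Aub, 5.80% of control Aub and 18.3% of AGO3.

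With the 5′ end held fixed, so that only the 3′ end could differ, mutant Aub lay between the controls. There were 138 5′ ends (the first 20 nt) with at least 1000 reads in mutant Aub and in AGO3, without OSC matches. Mutant Aub reads were longer on average at 107 of them, shorter at 26 and equal at 5, with a median difference of 0.31 nt. Control Aub against AGO3 gave 148 longer, 11 shorter and 5 equal of 164 ends, with a median of 0.51 nt. Mutant Aub set directly against control Aub was shorter at 49 of 62 ends, longer at 11 and equal at 2, with a median of -0.15 nt. At the 58 ends that passed in all 3 libraries the mean length was 25.2 nt in mutant Aub, 24.8 nt in AGO3 and 25.4 nt in control Aub. Ends chosen for high counts in these libraries are not a sample of all ends.

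**Figure D2:**
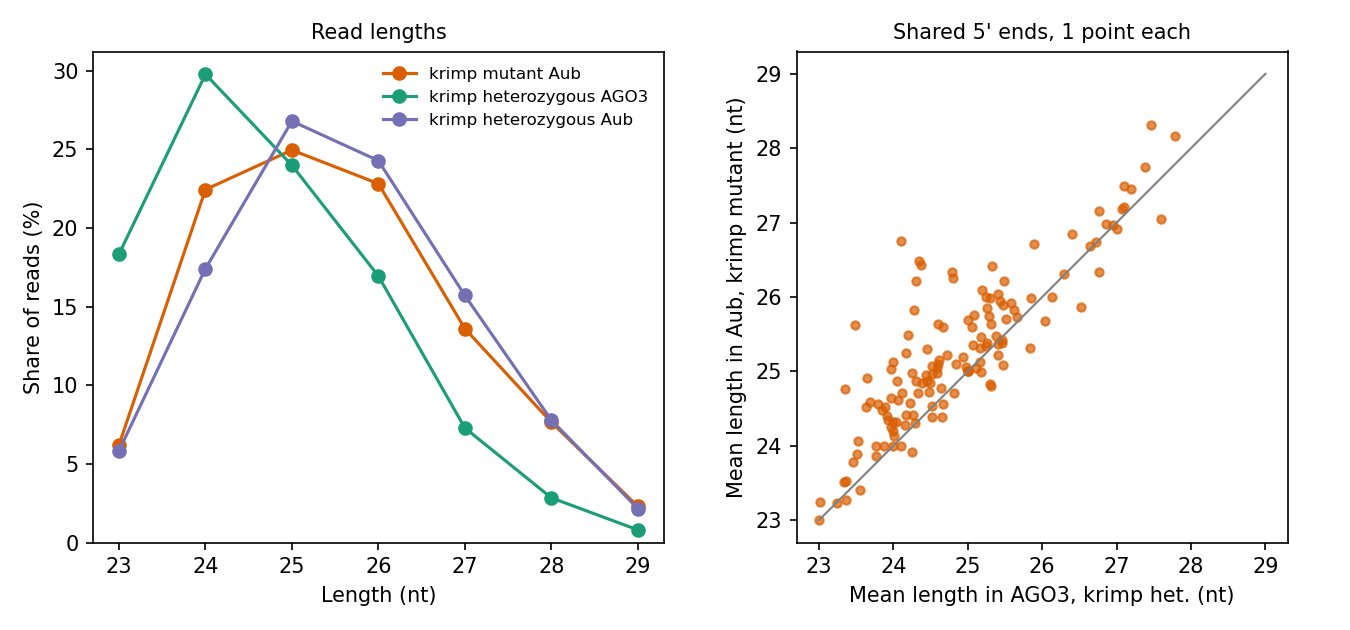
Left, share of reads (%) by length (nt) for 3 libraries without OSC matches. Right, mean length (nt) in mutant Aub against AGO3 for each of the 138 5′ ends with at least 1000 reads in both, where the grey line marks equal length and 107 points lie above it.

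The leading AGO3 piRNA shows this within a family of sequences with 1 common 5′ end, G first and A at position 10. Its 26 nt form was the most abundant kept sequence of AGO3, at 2.19% of reads, and was 1.52% of mutant Aub and 0.455% of control Aub. All forms with that 5′ end added up to 5.09% of AGO3 reads, 3.55% of mutant Aub reads and 0.978% of control Aub reads. Within the family, 24 nt forms were 25.8% of the reads in AGO3, 11.1% in mutant Aub and 3.29% in control Aub. The 27 nt forms had the opposite order, with 7.42% in AGO3, 30.7% in mutant Aub and 37.6% in control Aub. The family averaged 25.3 nt in AGO3, 26.0 nt in mutant Aub and 26.4 nt in control Aub, so that this abundant AGO3 piRNA sat in mutant Aub with lengths between those of the control proteins.

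Most reads of mutant Aub had a sequence that AGO3 also listed, but most AGO3 sequences were not listed in mutant Aub. The libraries shared 1343 sequences. These were 43.0% of the sequences and 77.9% of the reads of mutant Aub, and 12.2% of the sequences and 35.4% of the reads of AGO3. Control Aub listed the sequences of 68.6% of mutant Aub reads and mutant Piwi those of 57.2%, but the lists differ in length. Without OSC matches the shares of mutant Aub reads were 74.5% for AGO3, 62.5% for control Aub and 47.0% for mutant Piwi.

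At equal list length the order of AGO3 and control Aub was the other way round. Of the 3124 most abundant sequences of each library, mutant Aub shared 694 with AGO3, 797 with control Aub and 233 with mutant Piwi, which is 22.2%, 25.5% and 7.46%. The 2 control libraries shared 1016 with each other, or 32.5%. The summed share that a pair of libraries had in common, taking the lower share of each sequence, was computed over the complete lists. It was 19.2% for mutant Aub with AGO3 and 22.4% for mutant Aub with control Aub. Without OSC matches these were 20.9% and 24.0%. The 2 control libraries had 24.1% in common under either setting. With Piwi of heterozygous ovaries mutant Aub had 2.82% in common. The rank correlation of shares across shared sequences, a description only, was 0.30 with AGO3 over 1343 sequences and 0.25 with control Aub over 800, so it did not order the controls as the common share did.

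The leading sequences gave the 2 sides of this. Of the 50 most abundant sequences of AGO3, mutant Aub listed 38 and control Aub 48, and of the 500 most abundant, 207 and 299. Of the 50 most abundant sequences of mutant Aub without OSC matches, AGO3 listed all 50 and control Aub 46, and of 500, 369 and 279. AGO3 has the longer list of the 2 controls, which bears on the second comparison but not on the first.

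Among piRNAs that both controls list, a larger share of reads lay on the AGO3-leaning ones in mutant Aub than in mutant Piwi. Control Aub and AGO3 listed 1899 sequences in common, which were divided by the library with the higher share, so the AGO3-side shares of those 2 libraries, 67.9% and 11.1% of their reads on these sequences, follow from the division and are no measure to compare with. Mutant Aub and mutant Piwi took no part in it. Of the 1899 sequences, 385 lay on the AGO3 side. Mutant Aub listed 189 of these, and 229 and 238 sequences up to and over 4-fold higher in control Aub. Mutant Piwi listed 65, 122 and 187 in the same order. Of mutant Aub reads on these sequences, 28.7% lay on the AGO3 side, or 38.2% without OSC matches. Of mutant Piwi reads on these sequences the values were 12.7% and 14.3%. Of all kept reads, sequences over 4-fold and up to 4-fold higher in AGO3 held 5.11% and 13.8% in mutant Aub. Those up to 4-fold and over 4-fold higher in control Aub held more, 16.3% and 30.8%. Without OSC matches the 4 classes held, in this order, 6.49%, 16.4%, 19.0% and 17.9% of mutant Aub reads. In mutant Piwi they held 0.0478%, 0.289%, 0.691% and 1.63% of all kept reads.

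Mutant Aub listed a larger part of the AGO3-side classes than of the Aub-side classes, although the Aub-side classes held more of its reads. Mutant Aub listed 52 of the 98 sequences that were over 4-fold higher in AGO3, or 53.1% (42.7 to 63.2). It listed 137 of the 287 that were up to 4-fold higher in AGO3, or 47.7%. On the Aub side it listed 33.1% of 692 sequences that were up to 4-fold higher and 29.0% (25.9 to 32.2) of 822 that were over 4-fold higher. Mutant Piwi listed 15.3%, 17.4%, 17.6% and 22.7% of the same classes, an order in reverse whose intervals overlap from each class to the next. Sequences that AGO3 alone of the controls lists were rarely recovered, 687 of 9146 in mutant Aub, or 7.51%, and 346 in mutant Piwi, or 3.78%. Sequences that control Aub alone lists were recovered more often, 144 of 1259 in mutant Aub, or 11.4%, and 207 in mutant Piwi, or 16.4%. This goes against the order among sequences that both controls list. By reads, however, the sequences of AGO3 alone held 11.9% of mutant Aub reads and those of control Aub alone, which were fewer, 2.59%. In mutant Piwi the values were 1.68% and 2.04%. Control Aub lists sequences from 0.00762% of its kept reads, mutant Aub from 0.00417% and AGO3 from 0.00150%. Sequences that AGO3 alone lists can thus lie under the minimum of mutant Aub. Those over 4-fold higher in AGO3 had to exceed 4 times the control Aub minimum there, so the classes had unlike minimum shares by rule. The abundance of the sequences was not matched between classes, and its part in the result was not tested.

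**Figure D3:**
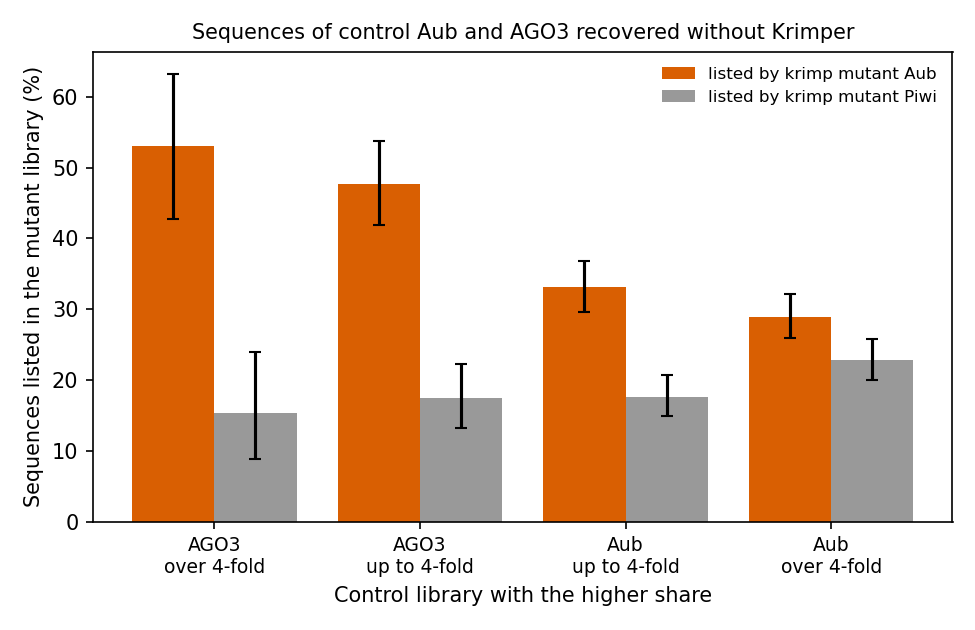
Bars give the share of sequences (%) that the mutant Aub or mutant Piwi library lists, for sequences found in both controls and grouped by the control library with the higher share, with exact 95% intervals as error bars. In mutant Aub the share goes from 53.1% for sequences over 4-fold higher in AGO3 to 29.0% for those over 4-fold higher in control Aub, and in mutant Piwi from 15.3% to 22.7%.

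The shares of single sequences varied widely between mutant Aub and AGO3. Of the 1343 shared sequences, 401 had a share over 4-fold higher in mutant Aub, or 29.9%, and 91 a share over 4-fold lower, or 6.78%. A sequence has to reach a higher share to be listed in mutant Aub than in AGO3, and the part of this in the split was not tested. With the same minimum share of 0.00417% in both libraries, 819 sequences were shared. Of these, 119 were over 4-fold higher in mutant Aub, or 14.5%, and 115 over 4-fold lower, or 14.0%. Shares in that setting were of the reads left, 2400019 in mutant Aub and 5585473 in AGO3. The smaller AGO3 total lowers every ratio to AGO3, and the highest log2 ratio went from 8.62 to 8.36. The median log2 ratio of the shares was 1.16 over the 1343 sequences and 0.0023 over the 819, so these medians rest on unlike totals.

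With the equal minimum, the base classes differed both in how many of their sequences were higher and in how many were lower in mutant Aub. Ratios here rest on the smaller AGO3 total of that setting, which lowers all of them alike. The sign of a small median and the counts past 4-fold therefore depend on the total used. Of 360 sequences with both bases, 15.3% were over 4-fold higher and 9.17% over 4-fold lower in mutant Aub, and the median log2 ratio was 0.34. Of 284 with 10A alone, 12.3% were higher and 17.3% lower, with a median of -0.41. Of 126 with 1U alone, 10.3% were higher and 18.3% lower, with a median of 0.037, and of 49 with neither base, 32.7% were higher and 20.4% lower, with a median of -0.23. The share higher among sequences with both bases was thus close to that over all 819. The class with neither base had the largest share higher, with an interval of 19.9 to 47.5% that lay above those of the other classes. Between the class with both bases and that with 10A alone, the intervals overlapped for the higher sequences (11.7 to 19.4% and 8.74 to 16.7%) and did not for the lower ones (6.39 to 12.6% and 13.0 to 22.2%).

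**Figure D4:**
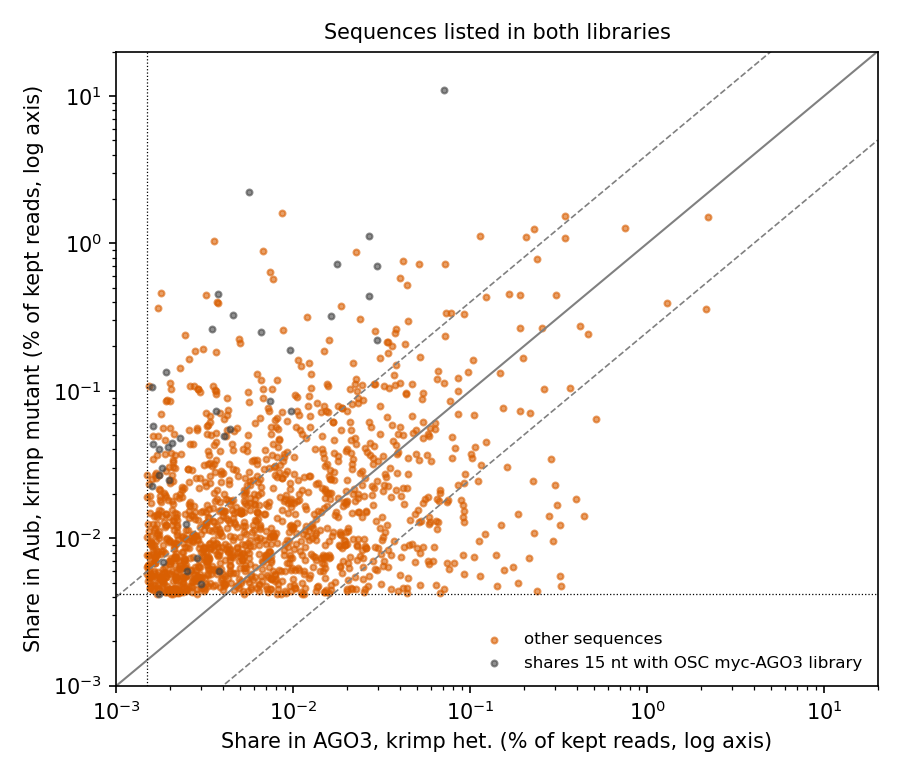
Each point is 1 of the 1343 shared sequences, with its share (% of kept reads, log axes) in AGO3 and in mutant Aub. The solid line marks equal shares, dashed lines 4-fold differences and dotted lines the share of 100 reads, and the leading OSC match at 11.0% in mutant Aub lies far above the equal line.

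The most abundant piRNAs ran in each direction. The second most abundant AGO3 sequence, 25 nt with C first and 10A, was 2.16% of AGO3 reads but 0.357% of mutant Aub and 0.336% of control Aub reads. It was thus as low in mutant Aub as in control Aub. The AGO3 sequence of rank 4, also 25 nt with C first and 10A, was 0.749% of AGO3, 1.27% of mutant Aub and 0.370% of control Aub reads, and so was highest in the mutant. A 24 nt sequence with G first and 10A, of rank 4 in mutant Aub, was 1.54% there, 0.341% in AGO3 and 0.106% in control Aub.

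An abundant sequence of mutant Aub was low in both controls. This sequence of rank 3, 25 nt with 1U and 10A, was 1.61% of mutant Aub reads, 0.00865% of AGO3 and 0.0142% of control Aub reads, which is 187-fold higher than in AGO3, where it had 578 reads and rank 2069. Its ping-pong partner was listed in mutant Aub and in neither control. By contrast a 26 nt sequence with 1U and 10A, the most abundant in control Aub, was 3.07% there, 1.24% in mutant Aub and 0.229% in AGO3. Of the 5 highest ratios to AGO3 among sequences of at least 0.1% in either library, 1 is a 27 nt form of the 5S-like sequence, at 2.21% against 0.00562%, or 393-fold. Ratios of 289-fold and 261-fold belong to 26 nt sequences with U first and G at position 10, of 1.03% and 0.464%. From general knowledge these resemble fragments of transfer RNA, matched to no reference here, and the OSC filter left them in, so that the filtered 1U reads of mutant Aub may still hold RNA that is not piRNA. The other 2 ratios, 211-fold and 187-fold, belong to 1U and 10A sequences of 25 nt.

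At the other end, abundant AGO3 piRNAs were missing from mutant Aub. The fifth most abundant AGO3 sequence, 25 nt with 1U and 10A, was 0.536% of AGO3 reads and 0.0994% of control Aub reads. Mutant Aub listed no sequence of 23 to 29 nt with its 5′ end, and with 99 reads as the upper limit for an unlisted sequence the AGO3 share was at least 129.9-fold higher. The 12th, 23 nt with C first and 10A, was 0.356% of AGO3 reads and at least 86.3-fold higher there, and control Aub did not list it either. Of the 5 lowest ratios, 4 were sequences that mutant Aub did not list, and the other, 23 nt with C first and G at position 10, was 0.00471% of mutant Aub and 0.325% of AGO3 reads.

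The 10 most abundant sequences that only 1 of the 2 libraries listed differed in length. Some of the mutant Aub ones shared a 5′ end with another of the 10. Those of mutant Aub had shares of 0.138 to 0.208%, and those of AGO3 of 0.210 to 0.536%. In AGO3 all 10 were 23 to 25 nt long, and in mutant Aub they were 24 to 27 nt. Control Aub listed 9 of the 10 AGO3 sequences, 7 of them at under 0.03%, and 3 of the 10 mutant Aub sequences.

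Mutant Aub held more ping-pong partners within its own list than either control did. At equal list length, 31.7% (30.1 to 33.4) of its 3124 sequences had a partner with a 10 nt 5′ overlap in the same library, against 16.3% (15.01 to 17.6) in AGO3 and 15.9% in control Aub. The mean over overlaps of 11 to 20 nt, taken as the background, was 1.58%, 0.461% and 0.346%. The Piwi libraries were near or under their background of 0.432% and 0.611%, with 0.448% of mutant and 0.224% of heterozygous Piwi sequences. Over the complete lists and by reads, the shares above background were 37.2% in mutant Aub and 34.2% in AGO3, a gap of 3.09 points, and over the complete lists by sequences the gap was 6.02 points. At equal list length by sequences the shares above background were 30.1% and 15.8%.

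Partners were also sought between libraries, at the same equal list length. AGO3 from krimp mutants was not analysed here, so mutant Aub was paired with libraries from other ovaries, of another genotype, while the control libraries share a genotype, and the genotype of Aub and this mismatch cannot be told apart. In the controls, 23.9% of control Aub sequences had a partner in AGO3, and 23.6% of AGO3 sequences had one in control Aub. Of mutant Aub sequences, 18.4% had a partner in AGO3 and 22.2% in control Aub. Of AGO3 sequences, 11.3% had a partner in mutant Aub. At this list length partners in the controls were found more between Aub and AGO3 than within either, but over the complete lists 25.6% of AGO3 sequences had a partner within AGO3 and 18.9% in control Aub. Mutant Aub sequences had a partner more often in their own list (31.7%) than in either control, though AGO3 came to 29.6% with its complete list.

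**Figure D5:**
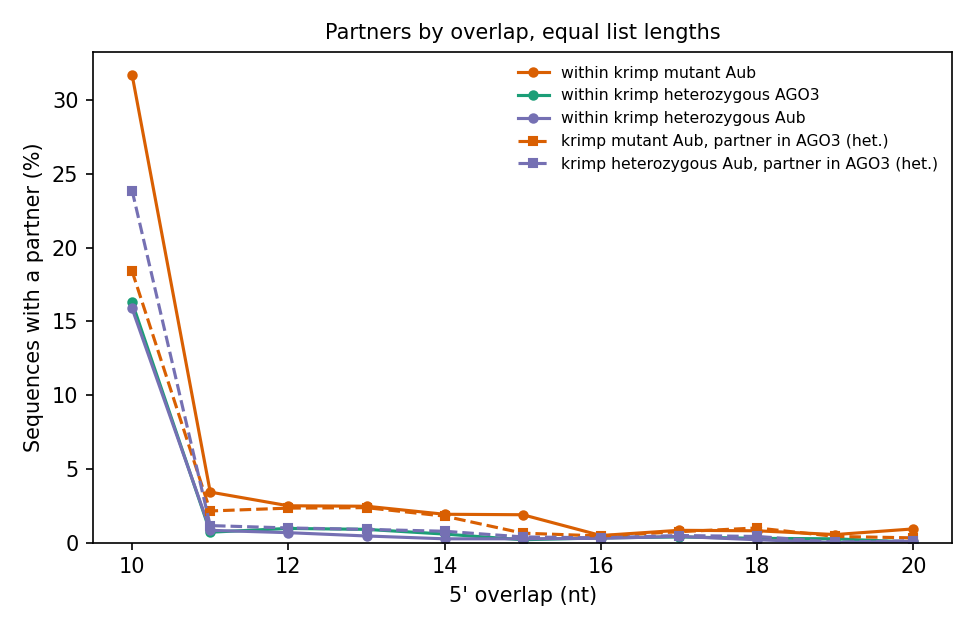
Share of sequences (%) that have a partner on the opposite strand, by the length of the 5′ overlap (10 to 20 nt), at 3124 sequences per library. At 10 nt the share within mutant Aub is 31.7%, within AGO3 16.3% and within control Aub 15.9%, and partners in AGO3 are found for 18.4% of mutant Aub and 23.9% of control Aub sequences (dashed).

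The paired sequences of mutant Aub were mostly of the class with both bases. Without OSC matches, 990 of 2982 sequences had a partner within mutant Aub, and 62.5% of these were 1U and 10A, against 30.4% of the paired AGO3 sequences and 34.6% of the paired control Aub sequences. Over all sequences, paired or not, this class was 45.7% in mutant Aub, 23.2% in AGO3 and 27.2% in control Aub, so much of the contrast was already in the lists as a whole. Because base 10 of each partner lies opposite base 1 of the other, a sequence with both bases has a partner with both. Of the mutant Aub sequences with 1U and 10A, 45.4% (42.8 to 48.1) had a partner in their own library, against 33.8% in AGO3, whose list is longer, and 20.6% in control Aub. For 234 mutant Aub sequences the partner was listed in mutant Aub alone of the 3 libraries, for 134 in AGO3 alone, and for 551 in all 3.

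The orientation of overlapping sequences was nearly the same in mutant Aub and AGO3. Mutant Aub sequences that overlapped AGO3 sequences by at least 18 nt in 1 orientation alone held 88.1% of its kept reads, and for 99.6% of these reads it was the same orientation. Sequences with overlaps in both orientations held 100197 further reads and were left out of these shares. The value was 98.0% for mutant Aub against control Aub and 99.8% for control Aub against AGO3, so it did not tell mutant Aub from control Aub. AGO3 against heterozygous Piwi gave 87.2%. A sequence that 2 libraries share counts as a same-orientation overlap, and sense and antisense to transposons cannot be read from these lists, which carry no strand.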

How the data were processed

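The authors deposited, for each library, distinct sequences of 20 to 30 nt with raw read counts, not normalized and listed from 100 reads up; the sum of a file is therefore not the depth of its library. Per the labels' protocols, Piwi-family proteins were immunopurified from ovaries, RNA was size-selected on gels, and the TruSeq Small RNA kit was used. The genome build was dm3, per the submitters' processing notes. For the aligner, trimmer and any genome filter, no name is given in the sources used here.

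Groups came from the labels, with 1 library each. Shares are of kept reads or, under a further filter or minimum, of the reads left by it. Sequences sharing 15 nt with 2S rRNA and those outside 23 to 29 nt were left out. A partner has first 10 nt that are the reverse complement of the sequence's own first 10 nt, and overlaps of 11 to 20 nt were the background; 2 mutant Aub and 8 AGO3 sequences are their own reverse complement there. The step was tested on simulated data. Called means a share over 4-fold apart. Named sequences are the 10 with the highest mean share, the 5 highest and 5 lowest ratios among those of at least 0.1% in either library, and the 10 most abundant that only 1 library lists. Members and lists were chosen with earlier results of these data known. Python 3.11.15, numpy 2.4.6 and scipy 1.17.1 were used. The alternatives were each sequence counted once, 12 nt for the 2S rule, all lengths, a minimum of 200 reads, equal list length, Oregon R AGO3 and joining by the first 20 nt, and 3 added after the data were seen (both filters and an equal minimum share). Removal of known RNAs by reference sequences was planned and not run, since no such sequences were used here. Coordinates and transposons were not analysed here.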

Additional observations from a re-analysis of the deposited data

Results flagged for a closer look

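Reads of 20 to 22 nt lie outside the lengths compared and still carried 10A. The share was 38.1% of 62903 reads in mutant Aub and 63.3% of 620199 reads in AGO3, against 22.03% of 23394 reads in control Aub. Of these reads, 71.0% in mutant Aub and 79.3% in AGO3 began with the first 20 nt of a kept sequence of the same library.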

How the results depend on the processing

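Values are given in 1 order: the difference of mutant Aub minus AGO3 in 10A and in 1U, the share of mutant Aub reads that AGO3 lists and of AGO3 reads that mutant Aub lists, the pairing above background within mutant Aub minus within AGO3, the pairing of mutant Aub with AGO3, and the share in the same orientation. The reported values were -15.8, 16.2, 77.9, 35.4, 3.09, 31.9 and 99.6. Counting each sequence once gave -4.52, 24.5, 43.0, 12.2, 6.02, 27.3 and 98.4. A minimum of 200 reads gave -17.0, 15.6, 75.6, 32.4, 3.90, 22.8 and 99.8, and counts over 4-fold of 199 higher and 40 lower. Equal list length gave -17.3, 17.2, 59.3, 42.7, 15.05, 19.9 and 99.6, with 83 higher and 125 lower. An equal minimum share gave -17.0, 17.0, 64.4, 40.7, 14.2, 21.1 and 99.6, with 119 higher. Without OSC matches the values were -0.28, 27.2, 74.5, 35.3, 12.9, 40.6 and 99.5, and with the filter on the mutant total library 4.05 (the direction turned), 28.1, 73.9, 35.4, 15.3, 42.8 and 99.5. With Oregon R AGO3 they were 1.56 (turned), 29.1, 3.74, 11.6, 36.8, 7.13 and 98.1, with 2 higher and 34 lower, but that library kept only 396 sequences and 95991 reads. It came from Oregon R ovaries, labelled control, and not from krimp heterozygous ones, so the genotype changed along with the library. All lengths moved 10A to -15.2, listing to 77.0 and 33.8, pairing to 1.75 and 32.5, and orientation to 99.6. Joining by the first 20 nt moved listing to 84.1 and 40.7, orientation to 99.4 and the higher count to 222. Of the shares and differences under these alternatives, 55 lay outside their counting interval, 2 more turned direction and 13 lay within it, and of the counts over 4-fold 7 moved by over 1.5 times and 11 did not. The causes were not tested. No paired analysis was possible because each group has 1 library. The read minimum limits all listing and pairing values.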
